A study of Mus musculus with 4 samples.

Results

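Gene deserts are described here as intervals of at least 1 Mb between the bodies of neighboring protein-coding genes on the 19 autosomes, from the GENCODE vM21 annotation of mm10. There were 248 of them, from 1.01 to 4.67 Mb long (median 1.51 Mb), with a total of 449.9 Mb. Their members are the 50 kb bins of the population-based replication timing profile that lie wholly inside such an interval. Of 8749 such bins 8745 had a value, out of 47928 measured autosomal bins (18.2%) and 51427 bins in the profile. Each desert is named by its left and right flanking gene, and the rule used no measured value. The interval is free of protein-coding genes but not of annotation. Inside the deserts lie 860 lncRNA genes, 1599 pseudogenes and 580 immunoglobulin or T cell receptor gene segments, which GENCODE does not class as protein coding.

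Replication timing was measured by Repli-seq in diploid F121-9 mESCs, a cas/129 hybrid embryonic stem cell line grown in N2B27 medium with 2i and LIF. The 4 libraries were BrdU-labeled DNA of the early S fraction, in 2 libraries, and of the late S fraction, in the other 2, all from the same untreated line. The authors joined them into 1 value per bin, here RT, which is the log2 ratio of the early to the late signal, both as RPM, that is reads scaled to the depth of the library. A bin with RT above 0 is called early here, and one below 0 late. With no value per replicate, neither an error between cultures nor a test of deserts against other bins could be given, and all comparisons below are descriptions. The deviation of a bin from the mean of its neighbors gave a noise SD of 0.14 per bin on the autosomes and 0.16 inside deserts. The number of reads behind a bin is unknown.

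In S phase the large domains of the genome are copied in a set temporal order. Gene-rich, open and transcribed chromatin is mostly early, and gene-poor chromatin attached to the nuclear lamina is mostly late. Long stretches of constant RT (constant timing regions, CTRs) are joined by timing transition regions (TTRs), where RT changes gradually along the chromosome. Gene deserts are AT-rich, often flank developmental regulators and neuronal genes, and some hold distant enhancers of their neighbors.

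To show what desert DNA of different RT looks like, 4 stretches of the reference assembly are given, each the 200-base window with the most CpG in 1 bin. CG is in capitals, and it reads the same on both strands. The bins are the highest in RT of the desert with the highest median, the inner peak of the desert whose middle rose most above its gene ends, and the lowest of the longest desert and of the desert with the lowest median.
Sox2 to Atp11b, chr3:34705554-34705753, mm10, + strand: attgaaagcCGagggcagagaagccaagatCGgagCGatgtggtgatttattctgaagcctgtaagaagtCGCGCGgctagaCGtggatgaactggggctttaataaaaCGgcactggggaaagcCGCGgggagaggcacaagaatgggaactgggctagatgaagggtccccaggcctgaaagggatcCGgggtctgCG
Lrfn5 to Fscb, chr12:63047913-63048112, mm10, + strand: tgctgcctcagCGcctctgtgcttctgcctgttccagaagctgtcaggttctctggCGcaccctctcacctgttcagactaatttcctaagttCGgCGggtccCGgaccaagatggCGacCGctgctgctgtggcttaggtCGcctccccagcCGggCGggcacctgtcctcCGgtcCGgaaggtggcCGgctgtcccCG
Tenm3 to Aga, chr8:50715195-50715394, mm10, + strand: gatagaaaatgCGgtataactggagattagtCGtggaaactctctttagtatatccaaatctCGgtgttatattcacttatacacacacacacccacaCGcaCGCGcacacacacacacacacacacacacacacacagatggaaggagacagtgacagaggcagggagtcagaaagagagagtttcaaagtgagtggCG
Arrdc4 to Nr2f2, chr7:69770461-69770660, mm10, + strand: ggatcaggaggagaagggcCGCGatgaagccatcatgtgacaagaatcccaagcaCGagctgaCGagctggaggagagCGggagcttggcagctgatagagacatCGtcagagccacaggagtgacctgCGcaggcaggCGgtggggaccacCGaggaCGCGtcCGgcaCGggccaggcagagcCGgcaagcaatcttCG
The bin of the Sox2 to Atp11b window had RT 3.36, and its window holds 12 CpG, is free of masked repeats and lies in the lincRNA gene Gm3143. The bin of the Lrfn5 to Fscb window had RT 0.44, and all bases of its window, with 14 CpG, are masked as repeat. The Tenm3 to Aga window holds 7 CpG in a bin at RT -4.40, and 49.0% of it is masked. The Arrdc4 to Nr2f2 window holds 15 CpG without any masked base, in a bin at RT -4.45. None of the last 3 windows overlaps an annotated gene. When measured bins were cut into consecutive windows of 200 bases, 58.7% of the windows inside deserts held at least 1 CG, against 70.0% over all autosomal bins, and 0.224% against 0.659% held 12 or more. The 4 windows were each chosen as the richest in CpG among all start positions in their bin. Their CpG counts are therefore not on the scale of these shares, and no relation of CpG to RT is read from them.

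Desert DNA was late replicating almost throughout. The median RT of the 8745 desert bins was -3.48 (quartiles -3.78 and -2.76), which is an 11.2-fold excess of late over early RPM, with a range from -4.71 to 3.62. The other autosomal bins had a median of 0.06 (quartiles -2.29 and 2.32). The medians differed by -3.54. Of the desert bins 8432 (96.4%) were late, with an exact 95% interval of 96.0% to 96.8% that takes in counting error alone. The share over all autosomal bins was 57.9%. RT below -3 was found in 70.3% of desert bins and in 26.6% of all autosomal bins. RT at or above 1 was found in 129 desert bins (1.48%) and in 33.0% of all autosomal bins. Deserts, with 18.2% of the autosomal bins, thus held 48.2% of those below RT -3 and 0.815% of those at or above RT 1.

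**Figure D1:**
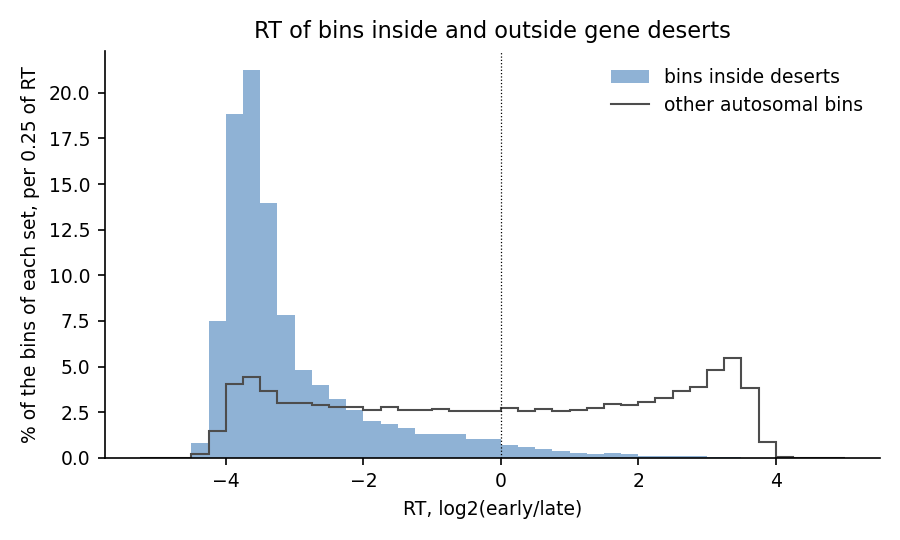
Distribution of RT (x axis, log2 of early over late) as percent of the bins of each set per 0.25 of RT, for 8745 bins inside deserts (filled) and 39183 other autosomal bins (line). Desert bins pile up around their median of -3.48, whereas the other bins spread over the whole range with a median of 0.06.

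The shift was found on each of the 19 autosomes. Median RT of desert bins lay in a narrow band, from -3.63 on chromosome 16 to -3.19 on chromosome 13. The median of the other bins ranged from -1.21 on chromosome 3 to 2.16 on chromosome 11. The difference between desert and other bins was therefore smallest on chromosome 3 (-2.35) and largest on chromosome 11 (-5.51), where 14.2% of the bins lay in deserts. Deserts took up from 10.6% of the bins of chromosome 7 to 30.8% of those of chromosome 12. The share of late bins in deserts was lowest on chromosome 19 (90.5%, 5 deserts) and highest on chromosome 6 (99.8%, 11 deserts).

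By desert, 157 of 248 (63.3%, exact 95% interval 57.0% to 69.3%) were late in every measured bin, 91 held both early and late bins, and none was early throughout. The share late in every bin was 57.5% among the 353 intergenic intervals of 500 kb to 1 Mb, which hold fewer bins each. A bin at RT 1 or above was found in 48 deserts (19.4%, 14.6% to 24.8%), against 25.8% of those shorter intervals. The median RT of a desert was below 0 in 245, below -3 in 199 and above -1 in 10. Even so, RT was not uniform inside most deserts. The range between the highest and lowest bin of a desert had a median of 3.19, and it was over 1 in 233 deserts.

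**Figure D2:**
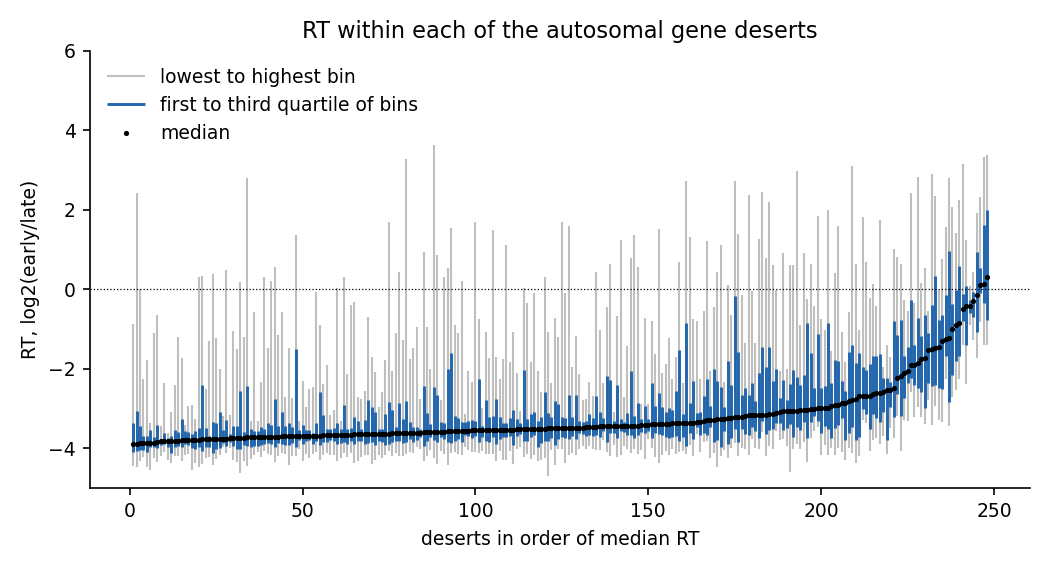
RT (y axis, log2 of early over late) in each of the 248 deserts, in order of their median RT (x axis, rank). Grey lines run from the lowest to the highest bin, blue lines between the quartiles of the bins, and points are medians, of which 245 lie below 0 and 199 below -3.

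Length made little difference above 1.5 Mb. The median RT of bins was -3.31 in the 122 deserts of 1 to 1.5 Mb, -3.54 in the 55 of 1.5 to 2 Mb, -3.52 in the 45 of 2 to 3 Mb and -3.51 in the 26 of at least 3 Mb. In shorter intergenic intervals it was -2.95 at 0.75 to 1 Mb, -2.20 at 0.5 to 0.75 Mb, -1.53 at 0.3 to 0.5 Mb and 0.53 at 0.1 to 0.2 Mb. Over these length classes the limit of 1 Mb therefore lies on a slope and not at a step. Just above it, Zfp516 to Tshz1 (1006 kb) had a median RT of -2.69, Pcdh10 to Pabpc4l (1007 kb) of -3.87 and Gdf6 to 2610301B20Rik (1012 kb) of -1.0. Just below it, Rbfox1 to Tmem114 (998 kb) had a median of -1.77, Gm4340 to Tmtc2 (991 kb) of -3.80 and Kif20b to Htr7 (983 kb) of -3.50. Close to the limit the order was the other way. Over the 33 deserts of up to 1.1 Mb the median of the interval medians was -3.16 (quartiles -3.55 and -2.63). Over the 40 intervals of 0.9 to 1 Mb it was -3.45 (quartiles -3.73 and -2.49), so the slope is not seen at this scale.

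The 5 longest deserts were late over nearly their whole length. Tenm3 to Aga (chr8:48843952-53511726, 4.67 Mb) lies between the gene of teneurin 3, a synaptic adhesion protein, and that of aspartylglucosaminidase, a lysosomal enzyme. Its 93 bins had a median RT of -3.59, a lowest value of -4.40 and a highest of 0.86, in the bin next to Tenm3. From there RT fell to 0.37, 0.07, -0.35, -1.17, -1.60 and -1.80 in the following bins and reached -4.04 in the bin centered 631 kb from the gene. It stayed close to that level except for 3 inner peaks, at -1.65, -2.01 and -1.55. Pcdh20 to Pcdh9 (chr14:88471397-93013409, 4.54 Mb), between a pair of protocadherin genes, had a median of -3.66 over 90 bins, none of them early, and 1 of its inner peaks reached -0.31. Celf4 to Pik3c3 (chr18:25754158-30272746, 4.52 Mb) had a median of -3.52, Olfm4 to Pcdh17 (chr14:80023140-84443562, 4.42 Mb) of -3.62 and Cntnap5b to Cdh20 (chr1:100485943-104768528, 4.28 Mb) of -3.51, and all bins of these 3 were late.

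The 5 lowest medians lay between -3.90 and -3.87. They were -3.90 in Arrdc4 to Nr2f2 (chr7:68749242-70351943), -3.90 in Tmpo to Nedd1 (chr10:91181316-92684745), -3.88 in Adgra3 to Ppargc1a (chr5:50059007-51454249), -3.88 in Gm16223 to Cpeb2 (chr5:42216799-43233169) and -3.87 in C030005K15Rik to Atp2b1 (chr10:97726756-98914405). In Arrdc4 to Nr2f2 the values started at -3.06 beside Arrdc4, stayed between -3.65 and -4.45 over 22 bins in the interior, and rose to -0.89 beside Nr2f2, the gene of a nuclear receptor of mesoderm and vessel development.

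The 5 highest medians lay between -0.30 and 0.32. Sox2 to Atp11b (chr3:34652462-35754105, 1.10 Mb) had the highest, 0.32. It borders the gene of the pluripotency factor SOX2, which is transcribed in mESCs. Along the desert RT was 3.36, 3.29, 2.92, 1.99, 1.17, 0.53 and -0.12 in the 7 bins next to Sox2, fell to -1.42, and then rose to 2.58 in the bin next to Atp11b, a phospholipid flippase gene. Its 10 late bins thus formed a single trough between early ends. Plekhb2 to Hs6st1 (chr1:34879581-36068399) had a median of 0.12 with 10 of 23 bins late, and Rnf144b to Id4 (chr13:47247992-48261227) had a median of -0.14 with 12 of 20 late. Olfr1507 to Dad1 (0.10) and Gm21863 to Asap2 (-0.30) complete the list and are described below, since both differ from the others in their annotation.

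**Figure D3:**
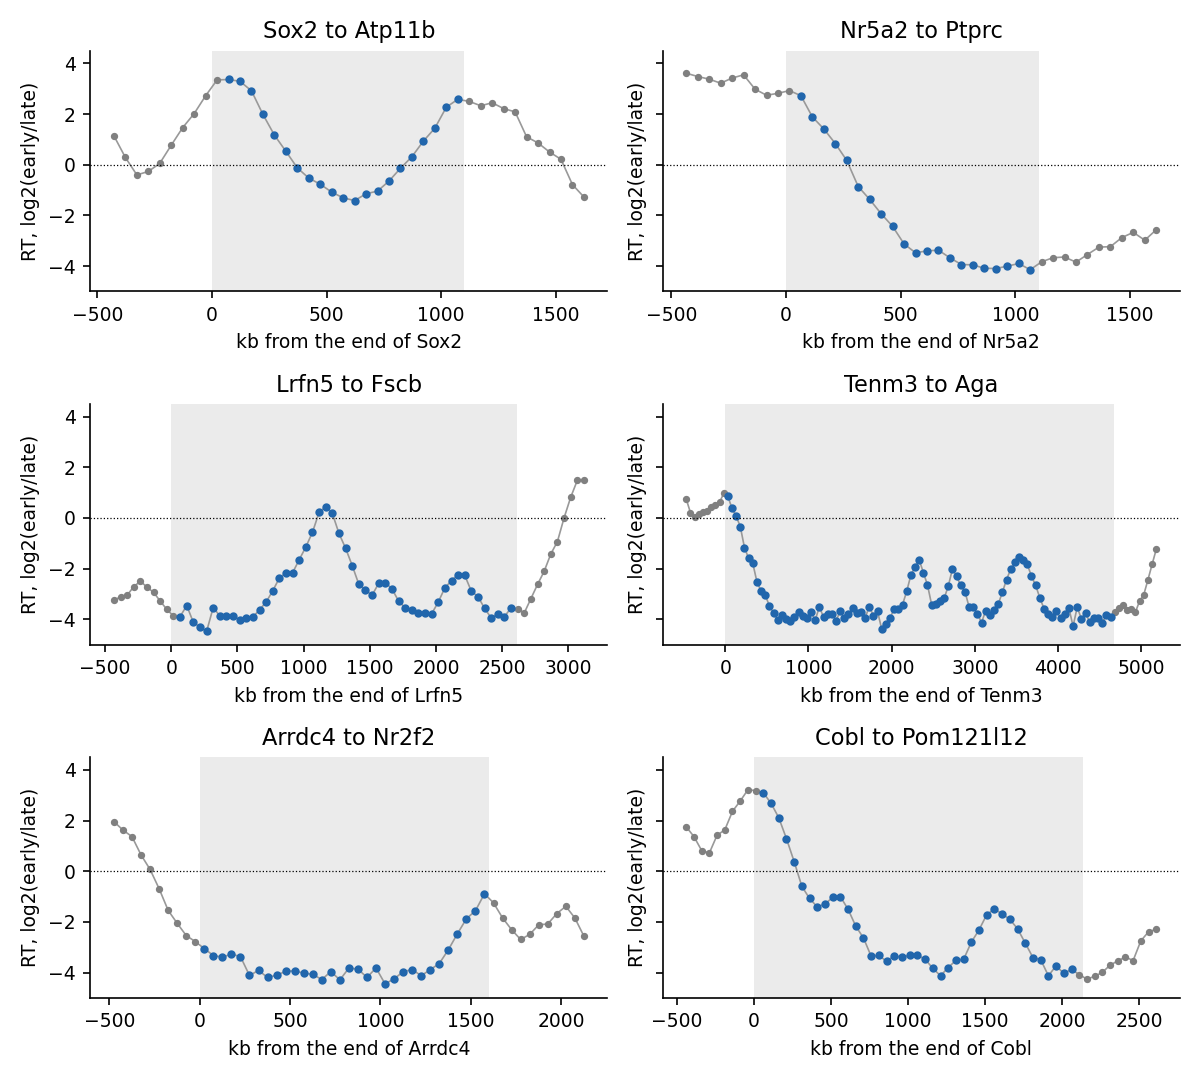
RT (y axis, log2 of early over late) of single 50 kb bins along 6 deserts, against the distance in kb from the desert-side end of the left gene (x axis). Blue points lie inside the desert (grey shading) and grey points outside it. Sox2 to Atp11b has a trough between early ends, Nr5a2 to Ptprc and Cobl to Pom121l12 fall from an early left end, Lrfn5 to Fscb and Tenm3 to Aga have inner peaks, and Arrdc4 to Nr2f2 is late throughout.

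The flanking genes themselves were mostly late. RT in the bin that holds the desert-side end of the gene was below 0 at 383 of the 496 ends (77.2%) with a median of -2.38, whereas 26.0% of all 41467 ends of autosomal protein-coding genes were late and their median RT was 2.34. The middle of a desert, the mean of its 3 central bins, was later than the mean of its gene ends in 211 deserts and earlier in 37. The median difference was -1.55 (quartiles -2.55 and -0.34), and only 4 deserts were earlier in the middle by more than 1.

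Deserts sorted by the state of their gene ends differed in how much of them was early. This grouping uses RT itself and is given as a description. With both ends late (151 deserts), 142 were late in every bin, none held a bin at RT 1 or above, and the median of the desert medians was -3.54. With 1 early end (81 deserts), 15 were late in every bin and 34 held a bin at RT 1 or above, yet the median was still -3.40. With both ends early (16 deserts), none was late throughout, 14 held a bin at RT 1 or above and the median was -1.27. The middle of these 16 had a median RT of -2.02.

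Early RT at a gene end did not extend far into a desert. At the 113 early ends the first late bin was centered a median of 148 kb from the gene (quartiles 89.1 and 213 kb, at most 493 kb). A bin below RT -2 was reached at 104 of these ends, at a median of 325 kb, and one below -3 at 91, at a median of 420 kb. Bins closest to an early end had a median RT of 0.72 within 100 kb of it, -0.29 at 100 to 200 kb, -1.42 at 200 to 300 kb, -2.25 at 300 to 400 kb, -2.95 at 400 to 500 kb and -3.52 at 500 to 750 kb. Bins closest to a late end went from -3.29 within 100 kb to -3.62 at 400 to 500 kb. At 500 to 750 kb the medians of the 2 kinds of side were -3.52 and -3.63, and at 750 to 1000 kb they were -3.66 and -3.57. In intergenic intervals of 500 kb to 1 Mb the values beside early ends were 0.94, -0.10, -1.20 and -2.03 over the same steps up to 400 kb, each higher than in the deserts. At 400 to 500 kb, with 52 bins against 226, the shorter intervals had a median of -1.95 and the deserts of -2.95.

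**Figure D4:**
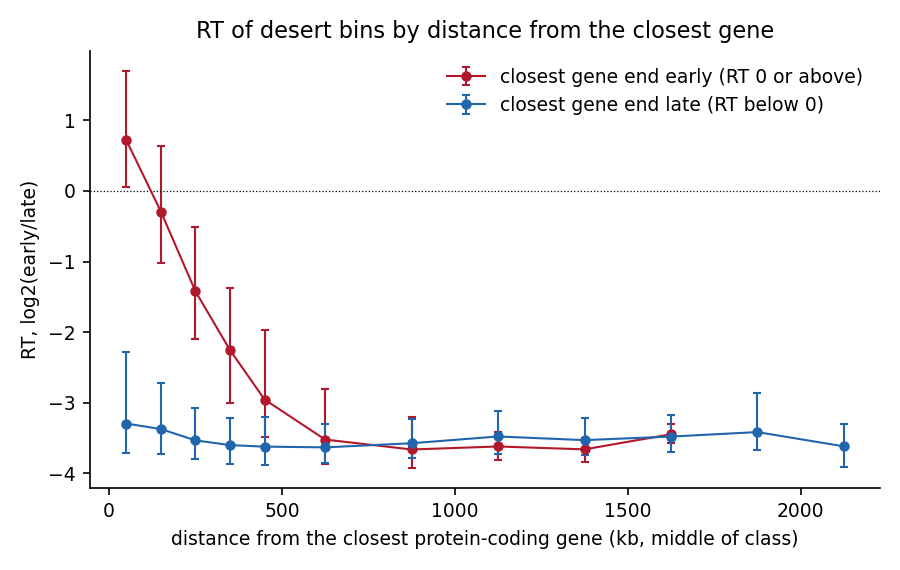
Median RT of desert bins (y axis, log2 of early over late) by distance from the closest protein-coding gene (x axis, kb, middle of each distance class), with bars between the quartiles, for bins closest to an early (red) or a late (blue) gene end. The red line falls from 0.72 within 100 kb to -3.52 at 500 to 750 kb, where the blue line is at -3.63.

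Deserts with 1 early and 1 late end showed such slopes most plainly. Nr5a2 to Ptprc (chr1:136960449-138062860) lies between the gene of a nuclear receptor of the pluripotency network and that of the leukocyte antigen CD45. From the Nr5a2 side RT read 2.73, 1.89, 1.41, 0.84, 0.17, -0.86, -1.37, -1.94, -2.43 and -3.13, and it was -4.15 in the bin next to Ptprc. RT thus fell in each of the 9 steps between these bins. Cobl to Pom121l12 (chr11:12464961-14599275) went from 3.10 beside Cobl, an actin regulator gene, to -3.88 beside Pom121l12, with an inner peak at -1.5. Got2 to Cdh8 (chr8:95888548-99024470) had gene ends at 3.31 and -3.87, Tmpo to Nedd1 at 3.13 and -3.51, and Mdga2 to Rps29 (chr12:67222550-69157721) at -4.04 and 3.14. The widest range inside a desert was that of Ctnna3 to Reep3 (chr10:65003668-67009188), from -4.25 to 3.62. Its last 7 bins before Reep3 read 0.11, 1.10, 1.95, 2.68, 3.09, 3.40 and 3.62. Fam181b to Tenm4 (chr7:93081868-96171245) also ran from -4.46 to 2.81, the latter on the side of Tenm4.

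There were 36 genes that each stand alone between 2 deserts. The median RT of their gene bodies was -3.52 (quartiles -3.65 and -3.11), below 0 in 34 and below -3 in 27. Of all autosomal bins wholly inside protein-coding genes 56.4% were late and 23.1% below -3, counted by bin and not by gene. Among all desert gene ends 77.2% were late. Of the 36 lone genes, 18 are on the list of neuronal adhesion genes described below. The 2 early ones are named here after their values were seen. Myc, a growth-promoting transcription factor gene, had RT 2.97 in its only bin, at chr15:61985391-61990374. The desert on its left, A1bg to Myc, was at -3.59 to -3.11 in the 12 bins on the far side and rose over the 8 bins next to Myc from -2.64 through -2.37, -1.57, -1.07, -0.16, 0.59 and 1.5 to 2.45. On its right, Myc to Gsdmc started at 2.90 and crossed to -0.38 in the 9th bin. That desert then held troughs at -2.54 and -3.43 with a peak at -0.62 between them. Tbl1xr1, the gene of a corepressor subunit, had a median RT of 2.38 over 4 bins between deserts with medians of -3.23 and -3.40. The lowest lone gene was Pom121l12, at -4.17.

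The flanking genes were then counted by family, from lists of symbols. A gene can be on more than 1 list, and the 248 deserts have 460 different flanking genes. Neuronal adhesion proteins and synapse organizers guide axons and build synapses, and their main site of use is the nervous system. They made up 52 of the 460 (11.3%), against 207 of 20780 autosomal protein-coding symbols (0.996%), so that 25.1% of the list lay beside a desert. Cdh5 and Adgrl4, better known from blood vessels, are counted by their family symbols. The 70 gene ends of this list had a median RT of -3.62 (quartiles -3.77 and -3.16), and 67 of them were late, against 383 of all 496 desert gene ends. The lowest were Dcc, a netrin receptor gene, at -4.20 and Pcdh20 at -4.03. The highest were Tenm4 at 2.99 and Tenm3 at 0.97, and the only other early end was that of the ephrin receptor gene Epha4 at 0.81. The middle of their deserts had a median of -3.61 over the 70 ends, where a desert with listed genes at both ends counts at each. Single deserts differed from this in both directions, with Lrfn5 at -3.87 and the middle of its desert towards Fscb at -1.23, and Tenm4 at 2.99 and the middle of its desert at -3.74. Neurotransmitter receptors and ion channels made up 15 of the flanking genes (3.26%, against 1.03% of all symbols). Their 15 ends were all late, where 77.2% of all desert gene ends were late, and had a median of -3.27. Among them Chrm3, a muscarinic receptor gene, was lowest at -4.09, followed by the potassium channel gene Kcnd2 at -4.03, and the end of Kcnt2, another potassium channel gene, was at -1.48.

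Developmental transcription factors had both early and late ends. They made up 25 of the 460 flanking genes (5.43%, against 1.48% of all symbols), with a median RT of -1.07 at the gene end (quartiles -1.99 and 1.32), and 8 of the 25 ends were early, against 113 of all 496 desert gene ends. Highest were Sox2 at 3.35 and Sall1, a zinc finger gene active in mESCs and in kidney development, at 3.16. Lowest were Zfhx4 at -3.78 and the homeobox gene Irx1 at -3.51. The middle of their deserts had a median of -3.58, so that most of these deserts dropped away from the gene. Of the pluripotency list 4 genes of 24 flanked a desert, and all 4 ends were early, with 3.35 for Sox2, 2.96 for Klf4, 2.93 for Nr5a2 and 2.18 for Dppa4. Of all 496 desert gene ends 113 were early, whereas over all autosomal gene ends 26.0% were late and most were early. With only 4 ends, nothing particular to the list is read from this count. The middles of these deserts were at -1.27, -2.81, -3.34 and -3.96, respectively. Sox2 and Klf4 are also among the transcription factors. Secreted growth factors had only 4 ends, from -3.78 at Nrg3, a neuregulin gene, to 0.81 at Fgf9, a fibroblast growth factor gene. The chemosensory receptors, 1427 genes in all, had 1, Olfr1507. Genes of a family that flank neighboring deserts share a region, so the ends of a list are not independent, and how far gene length sets these counts was not tested.

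**Figure D5:**
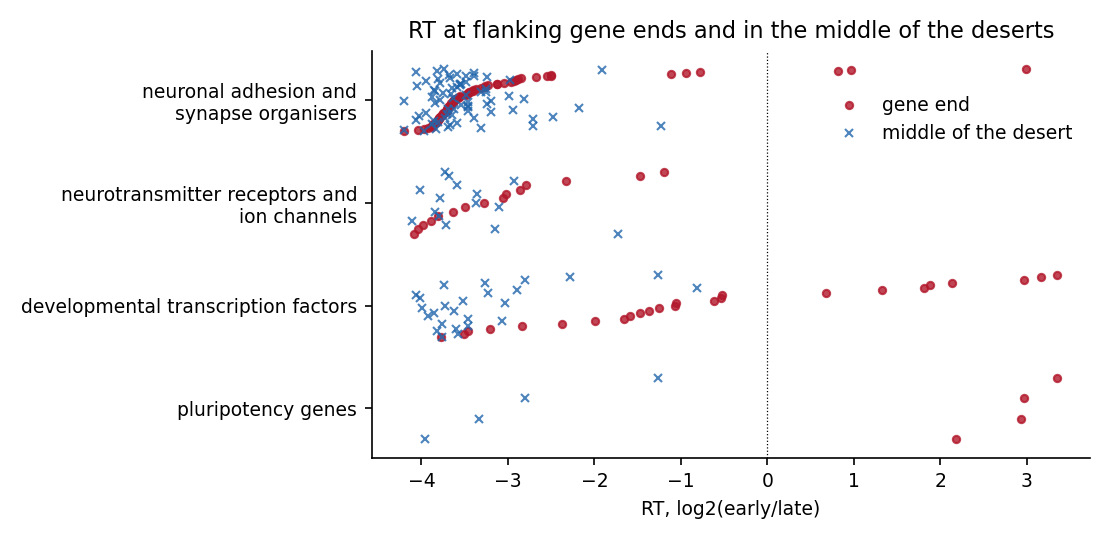
RT (x axis, log2 of early over late) at the desert-side gene end (red points) and in the middle of the same desert (blue crosses) for flanking genes of 4 lists (y axis). Each gene end has a line of its own within its list, so a desert with listed genes at both ends is drawn at each. The 4 pluripotency gene ends lie above 0 and the middles of their deserts below it, and 67 of 70 adhesion gene ends lie below 0, where 77.2% of all desert gene ends do.

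Rises of RT inside deserts were counted as peaks at bins at least 250 kb from both genes. Such a bin also had to stand at least 1 above the lowest bin on each side, taken up to the next higher bin. Where no higher bin followed, the lowest bin up to the end of the desert was taken. There were 146 such peaks in 102 deserts (41.1%). Their RT had a median of -2.05 (quartiles -2.54 and -1.41), so most were less late rather than early, and 10 reached RT 0. In 7 of the 146 the peak stood more than 1 above a directly neighboring bin, and 6 of the 10 early peaks remained without these. The highest of these 6, at 1.51 in Olfr1507 to Dad1, has a right neighbor without a value. A value of 0.78 was filled in there, and the next measured bin was at 0.05, so this peak was not checked on that side. A lncRNA gene started within 75 kb of 29 peaks (19.9%), which is close to the 18.9% found for all 6519 desert bins that far from both genes.

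The peak with the largest rise over its surroundings, chosen after its values were seen, was in Lrfn5 to Fscb (chr12:61858343-64471329, 2.61 Mb). Both gene ends were late, at -3.87 for Lrfn5, a synaptic adhesion gene, and -3.59 for Fscb, a sperm tail gene. RT rose from -4.48 in the bin centered 267 kb from Lrfn5 to 0.22 at 1117 kb, read 0.44 and 0.18 in the next bins and fell back to -3.05 at 1517 kb. A second peak in the same desert reached -2.23. Early bins occurred in 9 of the 151 deserts with late gene ends. Besides this one and 3 that are described below, they included Stxbp6 to Nova1, with a peak at 0.10 between neighbors at -0.19 and -0.29, and Camk1g to Plxna2, with a highest value of 0.67. In Gm12887 to 9530002B09Rik 2 of the 19 measured bins were early, and the higher of them, at 0.61, stood between bins at -3.06 and -3.11. That desert has 1 bin without a value and 69367 unassembled bases, and the part of these in the value was not tested.

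Antigen receptor segments make up much of the annotation of some deserts. Olfr1507 to Dad1 (chr14:52495750-54235478) holds 201 segments, those of T cell receptor alpha and delta, and its 33 measured bins ranged from -0.82 to 2.31 with a median of 0.10 and 11 late bins. Adam6a to Zfp386 (chr12:113546466-116047723), with 197 segments of the immunoglobulin heavy chain, had a median of -3.13 and 46 of 49 bins late. The T cell receptor desert was thus earlier than the heavy chain desert, which lay near the bulk of the deserts. Another 3 deserts follow each other on chromosome 12 from position 18535255 to 23778911, with medians of -0.41 in 5730507C01Rik to Gm21863, -0.30 in Gm21863 to Asap2 and -0.51 in Ywhaq to Gm10330. Their GC content was 45.0%, 44.9% and 44.8%, above the upper quartile of 39.7% over deserts, and they hold 34, 24 and 48 pseudogenes. RT stayed between -0.91 and 0.08 in the leftmost of them. Whether copies of similar sequence affect read mapping there was not tested.

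Noncoding genes and base composition were then set against RT. Of the desert bins 718 (8.21%) held the start of a lncRNA gene, with a median RT of -3.19 (quartiles -3.72 and -1.88), against -3.49 in bins without one. At least 250 kb from both genes, bins with a lncRNA start within 75 kb had a median of -3.48 and the others -3.56. Bins with the start of a pseudogene had a median of -3.35, against -3.50 without. The 33 deserts without any annotated lncRNA gene had a median of desert medians of -3.53, close to the -3.49 of the 215 with at least 1.

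Desert bins had a median GC content of 37.9% (quartiles 36.8% and 39.4%), against 42.3% in the other autosomal bins, 5.08 CpG per kb against 8.64, and 40.3% masked repeats against 29.5%. Across the 8745 desert bins the Spearman correlation of RT with GC content was 0.34, and across all 47923 autosomal bins with assembled sequence it was 0.75. For repeats it was 0.02 in deserts and -0.29 over all autosomal bins. Neighboring bins share RT and base composition, so these are descriptions. At equal GC content desert bins were later than the others. With 36% to 38% GC the medians were -3.59 in deserts and -3.34 elsewhere, with 38% to 40% they were -3.45 and -2.40, with 40% to 42% they were -2.79 and -1.04, and with 42% to 44% they were -1.80 and 0.51. The gap thus widened as GC content rose, while the number of desert bins fell from 3706 to 403 over these classes. At 34% to 36% GC both sets were late, at -3.58 and -3.54.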

How the data were processed

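Repli-seq of diploid F121-9 mESCs gave 4 libraries, early and late S-phase fractions in 2 replicates. By the methods, both fractions were scaled to RPM, and the authors deposited a log2 early to late ratio per 50 kb bin, 1 value that joins the libraries. The submitters' processing notes name Bowtie2, SAMtools, bedtools and mm10. How replicates were joined and whether bins were filtered or smoothed is not given in the sources used here. Depth is unknown, and exact binomial intervals cover counting only.

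Intergenic intervals were built from gene bodies of GENCODE vM21, and composition and sequence were read from the soft-masked GRCm38 assembly, the same build as mm10. Late and early were divided at RT 0. The middle of a desert is the mean of its 3 central bins, and a gene end takes the RT of its bin. Named deserts are the 5 longest, those with the 5 highest and 5 lowest medians, 5 widest ranges and 5 largest differences between gene ends, the 3 on either side of the length limit, those with antigen receptor segments, and for each gene list up to 4. Others were named after their values were seen, and some that the rule names are not reported here. The deserts, lists and rules were chosen with earlier results of these data known. No test was run, since each bin has 1 value. Alternatives changed the length limit, the bounding genes, the bins counted, smoothing, missing sequence and the division between early and late. Steps were tested on simulated data, where 298 of 298 intervals were recovered. Python 3.11.15, numpy 2.4.6, pandas 2.3.3, scipy 1.17.1 and matplotlib 3.10.9 were used.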

Additional observations from a re-analysis of the deposited data

How the results depend on the processing

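The alternative settings were each applied to some or all of 5 summary values, which gave 43 comparisons. Of these, 26 stayed within the 95% interval of the value reported and 17 moved outside it. The intervals of shares are exact binomial, and those of differences come from ranked bin or desert values. For the difference in medians, with the median of the other bins held fixed, the interval was -3.55 to -3.52. All take bins or deserts as independent. Neighboring bins share RT, so intervals over bins are too narrow and are used here only as a yardstick. The 2 values that are differences kept their sign under each alternative run for them. The late share of desert bins (96.4%) was 95.5% with a minimum length of 750 kb, 98.3% with 2 Mb, 95.5% when genes with Gm or Rik symbols did not bound a desert, 95.4% with bins partly inside, 92.6% when divided at the autosomal median RT of -0.85, and 95.6% with each desert counted once. The difference in median RT between desert and other bins (-3.54) was -3.70 at 750 kb, -3.09 at 2 Mb and -3.57 without Gm and Rik genes. Bounding by genes of any type left 4 deserts with 89 bins, with 100% late bins, a difference of -2.64, 100% of deserts late throughout and 0% with a bin at RT 1. Divided at the autosomal median, 48.8% of deserts lay below it throughout and 34.7% had a bin at least 1 above it, against 63.3% and 19.4% as reported. Bins partly inside gave 25.4% of deserts with a bin at RT 1, and the middle minus the gene ends (-1.55) was -1.02 at 2 Mb. Values with immunoglobulin and T cell receptor segments as bounds (245 deserts), with a running median over 5 bins and without bins beside missing sequence stayed within the intervals. No paired analysis was possible because the table used has a joint column for all 4 libraries, and leaving out a replicate was not possible for the same reason. The log2 ratio gives no read numbers, so the precision of single bins is known only from their spread around their neighbors.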

Other observations

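Outside the autosomes, chromosome X held 22 deserts by the same rule, with 639 measured bins. Their median RT was -3.38 (quartiles -3.70 and -2.78), 96.6% of the bins were late and 14 of the 22 deserts were late in every bin. The other 2586 bins of X had a median of -2.0 with 72.2% late. The highest value in an X desert was 2.70, in Cldn34c4 to Diaph2, whose right gene end was at 2.97 and whose left end was at -2.76. The longest, Diaph2 to Pcdh19 (3.12 Mb), had a median of -3.56 and gene ends at 0.94 and -2.77. The highest median was -0.93, in 4930578C19Rik to Tex13c3.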
